A study of Mus musculus with 48 samples.

Results

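Liver transcripts of Bmal1 knockout mice were compared between animals in which Dbp, an output gene of the circadian clock, was high and animals in which it was low. The mice of each side were chosen by their own Dbp level: the 24 KO mice of a series of 48 were ranked by the Dbp count over the total count of their library, and within each of 6 sampling hours the 2 highest mice formed the high-Dbp side and the 2 lowest the low-Dbp side, which gave 12 mice against 12. The sides are ranks by a measured transcript, not a treatment and not groups of the study, so that a called gene is one whose level went with Dbp rank among KO mice of the same hour. The 24 WT mice played no part in the ranking and served for measurements that it did not use.

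The KO mice carried Bmal1 f/f alleles and EsrCre, a Cre recombinase present in all tissues that acts only after tamoxifen. The WT mice, called control in their titles, were Cre-negative Bmal1 f/f littermates. All mice were C57BL/6 males of 4 to 6 months, and both genotypes were given 5 mg of tamoxifen per day by gavage on 5 consecutive days. After 7 further days they were held in darkness for 36 h and then killed without light, 4 mice per genotype at each of 6 hours spaced 4 h apart. The labels call these hours ZT0 to ZT20, while the column names of the count table call them CT. Mice of ZT4 and ZT8, of ZT12 and ZT16, and of ZT20 and ZT0 came from different sets of cages; the sides were formed within an hour, so each set gave both sides the same number of mice. All KO mice carried Cre and all mice received tamoxifen, on the high-Dbp and the low-Dbp side alike.

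The Arntl gene encodes BMAL1, which binds E-box elements together with CLOCK or NPAS2 and switches on genes, among them the Per and Cry genes, Nr1d1, Nr1d2 and Dbp. The PER and CRY proteins inhibit this pair, and the REV-ERB proteins encoded by Nr1d1 and Nr1d2 repress Arntl, Npas2, Clock, Cry1 and Nfil3. DBP, TEF and HLF activate and NFIL3 represses genes with D-box elements, which in liver include genes of drug and haem metabolism.

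The libraries held 33562272 to 34035644 counts each, and TMM scaling factors, which adjust for RNA composition, lay between 0.92 and 1.04 on the high-Dbp side and between 0.90 and 1.10 on the low-Dbp side. Levels below are CPM, the count relative to library size, with this scaling, except those of Dbp, which are over the column total. Summed hepatocyte markers (7 of 8 listed genes were in the table) were 23213 to 35543 CPM on the high-Dbp side and 21417 to 32976 CPM on the low-Dbp side. The floxed allele removes only part of Arntl, so its whole-gene count does not check the deletion. Nothing in the labels says that any 2 libraries came from 1 mouse, and no 2 libraries of a group agreed within counting error.

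Dbp (ENSMUSG00000059824, mm9 chr7:52960458-52965525) ranged widely among KO mice of the same hour. It was between 6.28 and 64.1 CPM on the high-Dbp side (median 27.7) and between 2.21 and 30.9 CPM on the low-Dbp side (median 5.22), and the ranges overlap only because the cut was drawn within each hour. The highest KO mouse exceeded the lowest of its hour 5.48-fold at ZT12 and 17.2-fold at ZT16, the narrowest and the widest hour. The mice next to the cut were far apart at ZT0 (15.2 CPM above it and 7.79 below), ZT8 (21.2 and 6.90) and ZT16 (9.63 and 4.06). They were close at ZT4 (16.4 and 15.7), ZT12 (6.28 and 5.49) and ZT20 (34.1 and 30.9). In WT mice Dbp followed the hour, with its highest median at ZT8 (141 CPM) and its lowest at ZT0 (0.681 CPM), and with medians of 23.4 CPM at ZT4, 31.3 CPM at ZT12, 3.43 CPM at ZT16 and 2.32 CPM at ZT20 (n = 4 each). Dbp shares 689 bases with Sphk2, and the library kit does not record the strand; Sphk2 averaged 48.2 CPM on the high-Dbp side and 48.1 CPM on the low-Dbp side. These Dbp values chose the mice and were not tested.

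**Figure D1:**
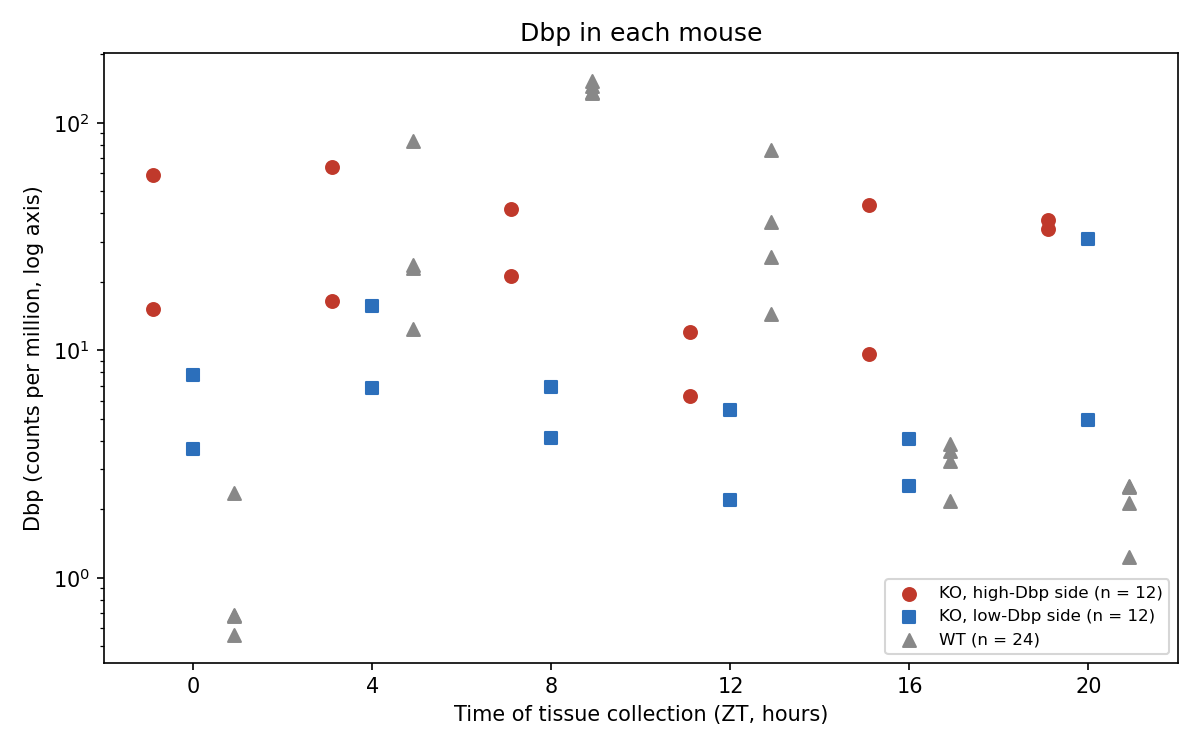
Dbp in CPM (log axis) in each of the 48 mice against the hour of collection; red circles are KO mice of the high-Dbp side, blue squares KO mice of the low-Dbp side and grey triangles WT mice, shifted sideways within an hour. The KO mice span 2.21 to 64.1 CPM with both sides present at each hour, while WT mice cluster by hour between 0.561 and 153 CPM.

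With the hour in the model, 5 of 14835 other genes (0.0337%) differed between the sides. All 5 were rhythmic in WT liver, as were 49.6% of all genes. Gm129 (Ciart, a repressor of the clock) and Nr1d1 (REV-ERBα) were higher in high-Dbp KO mice; Nfil3 (the D-box repressor), Slc44a1 (a choline transporter) and Lonrf3 (a RING finger protein) were lower. At an unadjusted p under 0.05 there were 702 higher genes (4.73%) and 671 lower genes (4.52%), 9.26% in all. All tests across genes are edgeR quasi-likelihood tests with Benjamini-Hochberg adjustment over the 14835 genes, and a gene is called at an adjusted p under 0.05.

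Gm129 (ENSMUSG00000038550, mm9 chr3:95682426-95686174) was between 1.56 and 11.1 CPM in high-Dbp KO mice (median 4.92), against 0.33 to 2.49 CPM in low-Dbp KO mice (median 0.86). Both high mice lay above both low mice in all 6 hours, including the hours in which the cut fell between near-equal Dbp values: at ZT4 the mice next to the cut had 3.29 CPM above it and 1.65 CPM below it, and at ZT20 4.19 and 2.49 CPM. The log2 difference was 2.28 ± 0.27 (SE, 12 mice a side, adjusted p = 0.000378), and the hourly differences lay between 1.80 at ZT20 and 2.81 at ZT0. It equals 35.2% of the log2 span between the highest and the lowest hourly mean of WT mice, which had 20.98 CPM at ZT8 and 0.198 CPM at ZT0. Gm129 lies wholly within another gene model, C920021L13Rik, which averaged 0.449 CPM on the high-Dbp side and 0.393 CPM on the low-Dbp side. Only 1 other gene of the 14835, Etnk2, was separated in the same direction in all 6 hours, and 0 genes in the opposite direction (0.0135% of genes and 0%). Etnk2 (ethanolamine kinase 2), singled out after its values were seen, averaged 582 CPM on the high-Dbp side and 448 CPM on the low-Dbp side, with a log2 difference of 0.37 ± 0.08 (SE) that was not called by edgeR (adjusted p = 0.125); DESeq2 called it (adjusted p = 0.00477), as did edgeR with no filter on low counts (adjusted p = 0.0387), and it had a called slope on log2 Dbp (0.16 ± 0.03, SE, adjusted p = 0.00546).

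Nr1d1 (ENSMUSG00000020889, mm9 chr11:98629246-98636647) was between 17.8 and 67.9 CPM in high-Dbp KO mice (median 32.1), against 4.91 to 29.4 CPM in low-Dbp KO mice (median 8.38). The sides were separated in 5 of 6 hours, with the exception at ZT12; in all, 25 genes (0.169%) were separated upward in at least 5 hours and 29 (0.195%) downward. The log2 difference was 1.56 ± 0.25 (SE, adjusted p = 0.0119), or 26.5% of the WT span. It shares 1075 bases with Thra on the opposite strand, which the libraries cannot tell apart; Thra averaged 16.7 CPM on the high-Dbp side and 17.7 CPM on the low-Dbp side.

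Nfil3 (ENSMUSG00000056749, mm9 chr13:53062578-53076442) was between 20.3 and 44.1 CPM in high-Dbp KO mice (median 25.3), against 34.96 to 54.3 CPM in low-Dbp KO mice (median 44.01). Both high mice lay below both low mice in 5 of 6 hours, and at ZT12 the ranges overlapped. The log2 difference was -0.70 ± 0.10 (SE, adjusted p = 0.00384). Slc44a1 (ENSMUSG00000028412, mm9 chr4:53453285-53635350) was between 44.6 and 59.5 CPM in high-Dbp KO mice (median 49.8), against 54.8 to 76.9 CPM in low-Dbp KO mice (median 62.6). Both high mice lay below both low mice in 5 of 6 hours, and at ZT20 the ranges overlapped. The log2 difference of -0.32 ± 0.05 (SE, adjusted p = 0.00384) equals 44.4% of its WT span. Lonrf3, on the X chromosome, averaged under 5 CPM and is named because it completes the called genes. It was between 2.45 and 5.12 CPM in high-Dbp KO mice (median 3.78), against 4.39 to 8.30 CPM in low-Dbp KO mice (median 6.02), a log2 difference of -0.67 ± 0.11 (SE, adjusted p = 0.0119).

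Leaving out 1 of the 24 mice at a time ended none of these 5 calls. Leaving out a whole hour did: without ZT0 or without ZT8 Gm129 alone was called, and without ZT16 Gm129 and Slc44a1. Without KO mice 20, 21, 43 and 44 together, Gm129 and Nfil3 were called. With only the highest and the lowest mouse of each hour Nfil3 had a log2 difference of -0.89 and was not called (adjusted p = 0.0542), while the other 4 were. DESeq2 called further genes named below as short of edgeR's threshold, among them Tef, Nr1d2, Usp2, Cry1, Cyp7a1, Rgs16, Insig2 and Trib3.

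**Figure D2:**
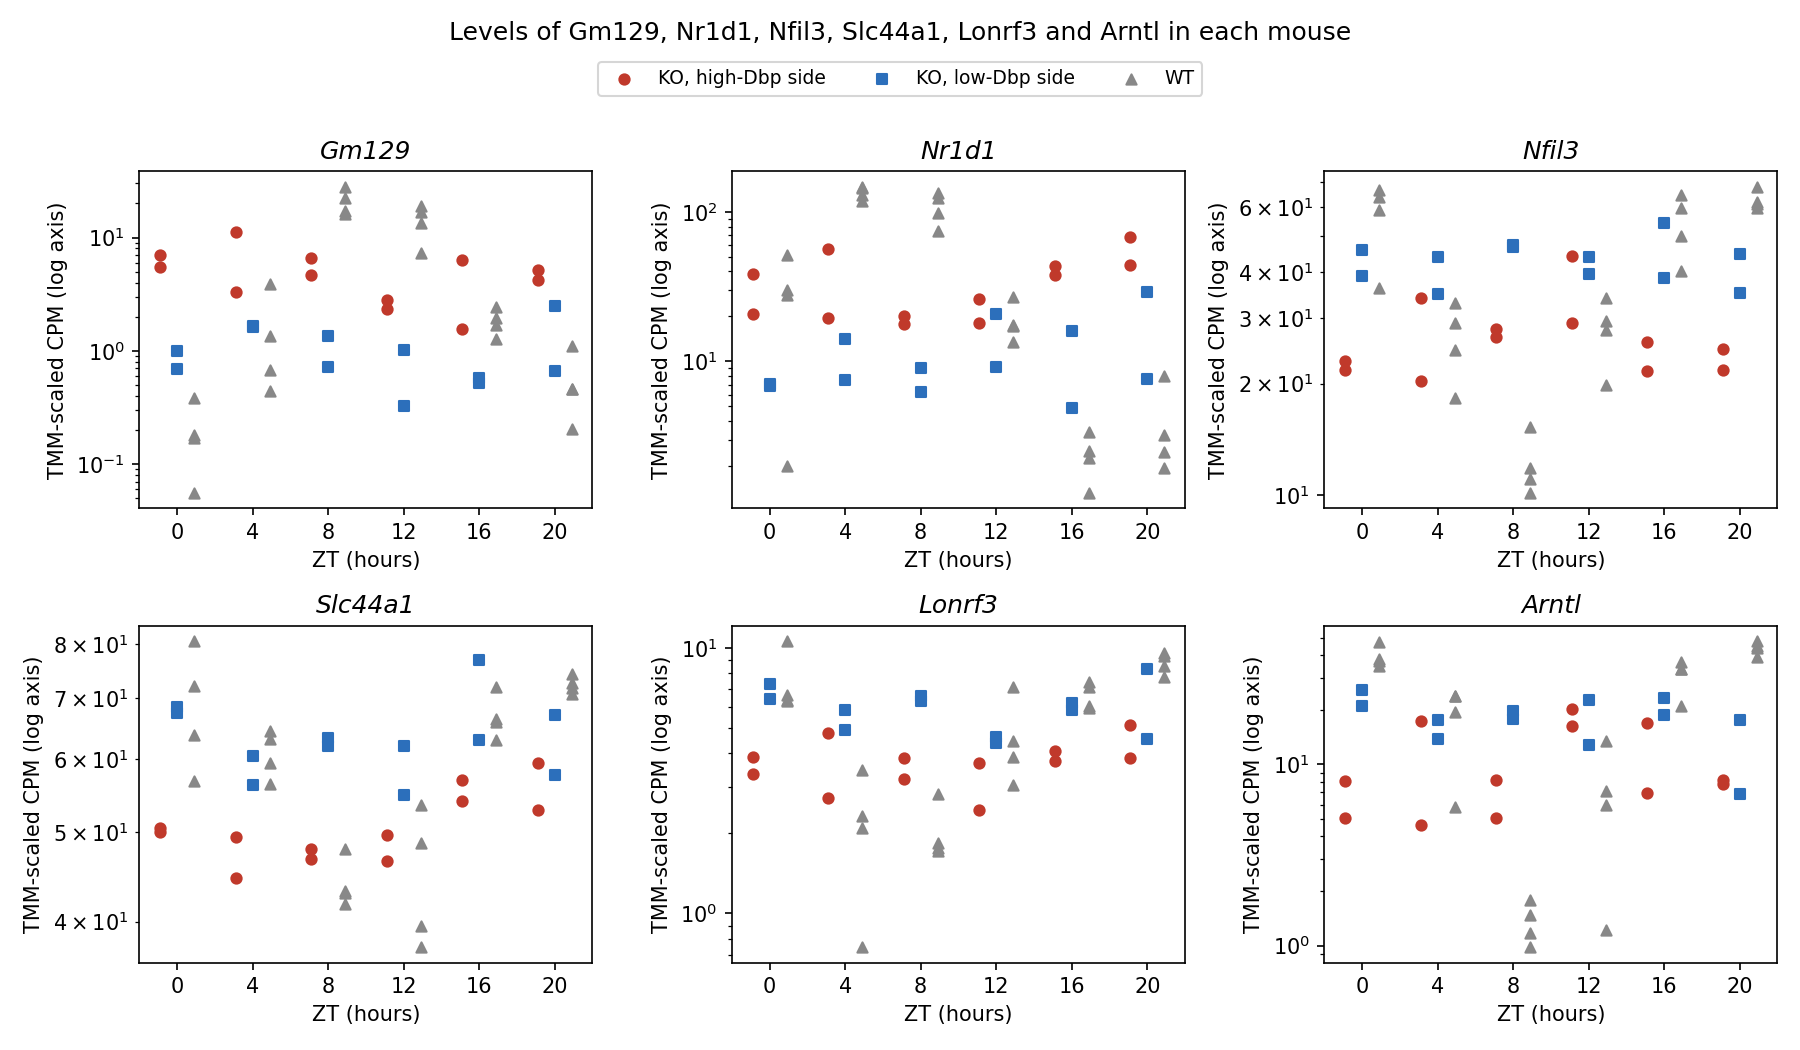
Level in each mouse (TMM-scaled CPM, log axis) against the hour of collection for the 5 called genes and Arntl; red circles are high-Dbp KO mice, blue squares low-Dbp KO mice and grey triangles WT mice, shifted sideways within an hour. Gm129 and Nr1d1 are higher and Nfil3, Slc44a1 and Lonrf3 lower on the high-Dbp side, while for Arntl the sides overlap at ZT4, ZT12, and ZT20.

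The DNA just upstream of Gm129, Nfil3 and Lonrf3 is shown for the elements through which the clock loop is known to run. Per3, which was not called between the sides, is shown with them. The 250 bases before the RefSeq start of each gene (build GRCm38.p6) were searched on both strands for CACGTG (the E-box, a palindrome), TAGGTCA (bound by REV-ERB and ROR proteins) and TTATGTAA (a D-box); no motif overlaps another in these windows. Gm129, under its current name Ciart, is at chr3:95882229-95882478 on the minus strand, Nfil3 at chr13:52981040-52981289 on the minus strand, Lonrf3 at chrX:36328159-36328408 on the plus strand, and Per3, whose values follow below, at chr4:151044666-151044915 on the minus strand. Each is written 5′ to 3′ in the direction of its gene, with the motif in capitals.
Gm129 (Ciart): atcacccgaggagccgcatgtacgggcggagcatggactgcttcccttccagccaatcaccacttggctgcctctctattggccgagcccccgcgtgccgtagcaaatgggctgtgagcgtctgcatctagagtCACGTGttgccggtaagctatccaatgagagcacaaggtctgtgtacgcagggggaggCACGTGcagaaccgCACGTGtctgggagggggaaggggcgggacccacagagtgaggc
Nfil3: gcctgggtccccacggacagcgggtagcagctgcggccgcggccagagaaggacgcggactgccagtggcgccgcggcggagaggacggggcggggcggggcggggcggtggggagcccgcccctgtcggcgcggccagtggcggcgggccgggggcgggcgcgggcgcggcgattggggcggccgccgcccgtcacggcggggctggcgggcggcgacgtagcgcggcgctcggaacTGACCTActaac
Lonrf3: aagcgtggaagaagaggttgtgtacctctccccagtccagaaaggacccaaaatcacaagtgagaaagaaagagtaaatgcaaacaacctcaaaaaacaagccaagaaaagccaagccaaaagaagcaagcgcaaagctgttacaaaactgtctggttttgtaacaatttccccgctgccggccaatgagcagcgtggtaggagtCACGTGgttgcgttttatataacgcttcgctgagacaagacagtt
Per3: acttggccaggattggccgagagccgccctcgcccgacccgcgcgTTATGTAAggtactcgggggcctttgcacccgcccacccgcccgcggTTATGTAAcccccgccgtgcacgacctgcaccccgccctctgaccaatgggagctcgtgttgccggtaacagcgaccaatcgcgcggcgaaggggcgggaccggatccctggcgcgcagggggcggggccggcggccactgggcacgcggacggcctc
Gm129 holds 3 E-boxes, whose last bases lie 111, 53 and 39 bases before the start. Nfil3 holds 1 REV-ERB and ROR element, written TGACCTA on this strand, 6 bases before the start. Lonrf3, which was lower on the high-Dbp side, holds 1 E-box 40 bases before the start, and Per3 holds 2 D-boxes 198 and 151 bases before it. In the whole promoter table of 27025 genes, 6.86% of genes held an E-box in at least 1 such window, 2.55% the REV-ERB and ROR element and 0.977% the D-box. The windows of Dbp, Nr1d1, Slc44a1, Arntl, Clock and Npas2 held none of these motifs. That of Cry1 held an E-box but no REV-ERB and ROR element. A match is a run of letters, not a bound site.

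Of 14 E-box clock targets other than Dbp, 2 were called higher (0.0135% of all genes) and 0 lower, and the median log2 difference was 0.46, against 0.002 over all genes. Unadjusted p values under 0.05 were reached in the higher direction by 9 of the 14 (4.73% of all genes). In the lower direction they were reached by 1 of the 14 (4.52% of all genes). Among those short of the adjusted threshold, Bhlhe41 (DEC2, a repressor of the clock) had a log2 difference of 0.91 ± 0.27 (SE), Per3 of 0.80 ± 0.25, Nr1d2 (REV-ERBβ) of 0.70 ± 0.17 and Tef of 0.48 ± 0.11, with adjusted p between 0.142 and 0.323. Tef was between 105 and 247 CPM in high-Dbp KO mice (median 188), against 86.9 to 193 CPM in low-Dbp KO mice (median 122), and the sides were separated in 5 of 6 hours. Per1 and Per2, the other Per genes, had log2 differences of 0.30 ± 0.29 and 0.35 ± 0.17 (SE) with adjusted p of 0.748 and 0.54. Per2 was between 21.7 and 47.9 CPM in high-Dbp KO mice, against 18.5 to 50.8 CPM in low-Dbp KO mice, so that the sides overlapped.

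The 5 genes repressed by REV-ERB proteins all lay lower on the high-Dbp side, with a median log2 difference of -0.74. All 5 had an unadjusted p under 0.05 (4.52% of all genes were lower at that p). Of these, Nfil3 alone was called (0.0202% of all genes were called lower). Cry1, an inhibitor of the BMAL1 pair, was between 11.8 and 29.9 CPM in high-Dbp KO mice (median 23.0), against 23.3 to 56.8 CPM in low-Dbp KO mice (median 31.4), a log2 difference of -0.74 ± 0.17 (SE, adjusted p = 0.14). Arntl (ENSMUSG00000055116, mm9 chr7:120350979-120457636) was between 4.60 and 20.1 CPM in high-Dbp KO mice (median 8.13), against 6.82 to 25.6 CPM in low-Dbp KO mice (median 18.2). Its log2 difference of -0.86 ± 0.24 (SE) was not called (adjusted p = 0.246); the sides were separated at ZT0, ZT8 and ZT16 and nearly level at ZT12, where the high mice averaged 18.2 CPM and the low mice 17.7 CPM. At ZT20 the low mouse next to the cut, with 30.9 CPM of Dbp, had 6.82 CPM of Arntl, and the lowest mouse, with 4.94 CPM of Dbp, had 17.6 CPM. Npas2 and Clock, the partners of BMAL1, had log2 differences of -0.88 ± 0.39 and -0.43 ± 0.13 (SE, adjusted p = 0.518 and 0.311).

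Of 11 other clock components, among them casein kinases and F-box proteins that set the turnover of PER and CRY, 0 were called by edgeR and their log2 differences lay between -0.27 and 0.10. Rora alone had an unadjusted p under 0.05 (-0.27 ± 0.09, SE, adjusted p = 0.335).

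**Figure D3:**
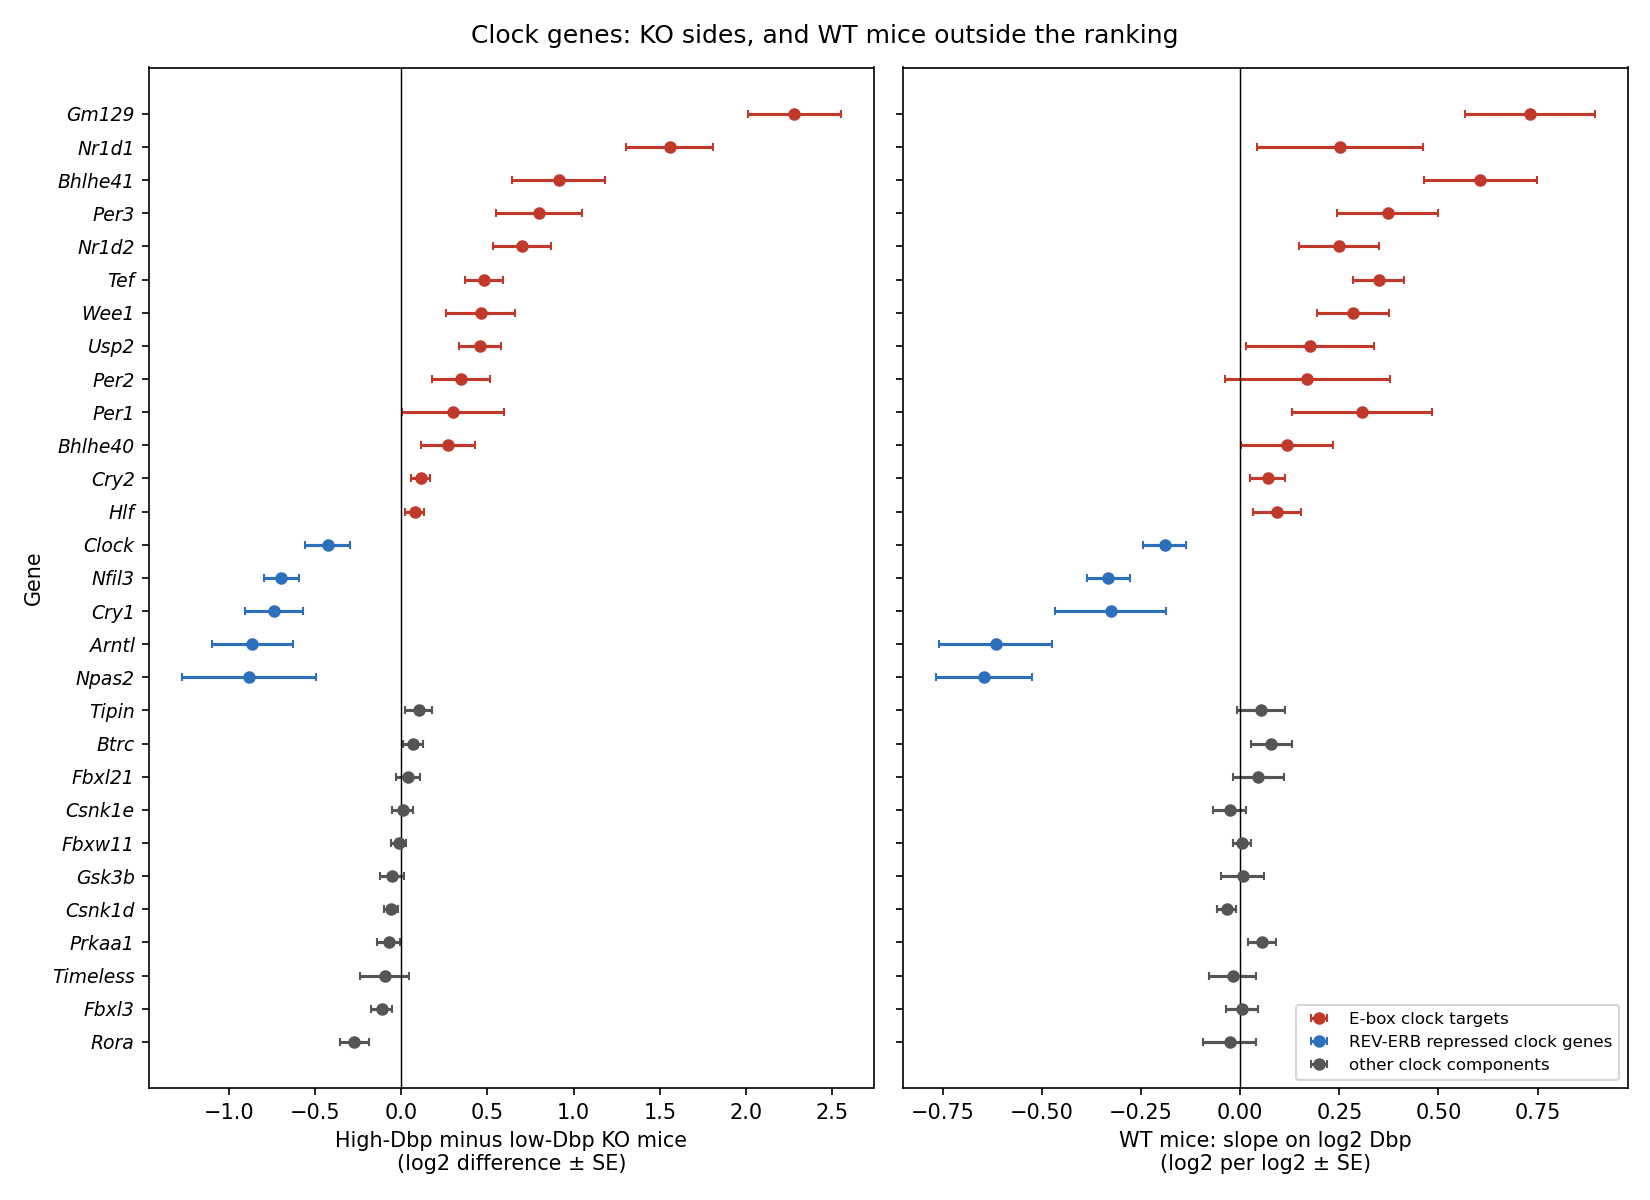
Left, log2 difference of high-Dbp minus low-Dbp KO mice (12 a side); right, slope on log2 Dbp among the 24 WT mice with the hour in the model; points are estimates and bars their SE, coloured by gene list. The E-box targets drawn, all but 1 of the list, lie right of 0 on the left panel and the 5 REV-ERB repressed genes left of 0, and the same genes lie on the same side of 0 in WT mice.

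Ranking discards the size of the Dbp difference, so the same 24 KO mice were also fitted with log2 Dbp as a number and the hour in the model; the 2 fits share all their mice and are not independent. With log2 Dbp as a number, 116 of 14835 genes (0.782%) had a called slope, 35 positive (0.236%) and 81 negative (0.546%); 9.43% of genes had an unadjusted p under 0.05. All 5 genes called between the sides were among them. Clpx (the ATPase of a mitochondrial protease) had a slope of -0.39 ± 0.03 log2 units per log2 unit of Dbp (SE, adjusted p = 6.97e-07). It was between 96.2 and 338 CPM in high-Dbp KO mice (median 190), against 179 to 551 CPM in low-Dbp KO mice (median 320). Rnf144a (a ubiquitin ligase) had a slope of -0.29 ± 0.03 and Tef of 0.25 ± 0.02 (SE), both with the same adjusted p.

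Of the clock genes, the E-box list had 7 called positive slopes among its 14 members and 0 called negative, and the REV-ERB list 4 called negative slopes among its 5. The slopes of Gm129 and Nr1d1 were 0.93 ± 0.09 and 0.69 ± 0.09 (SE), and that of Per3 was 0.46 ± 0.06. Arntl had a slope of -0.49 ± 0.06 (SE, adjusted p = 6.51e-05) and Cry1 of -0.36 ± 0.04 (SE, adjusted p = 6.51e-05). Clock had a slope of -0.22 ± 0.04 (SE, adjusted p = 0.0138), while Npas2, with -0.49 ± 0.14, was not called (adjusted p = 0.134). Among further clock outputs in liver, Insig2 (an inhibitor of sterol synthesis) had a slope of -0.28 ± 0.04, Dtx4 of -0.26 ± 0.04 and Por (the electron donor of cytochromes P450) of 0.22 ± 0.04 (SE), each called. Rgs16 (a regulator of G-protein signalling) had a log2 difference between the sides of 2.35 ± 0.60 (SE), but by edgeR was called neither there (adjusted p = 0.233) nor for a slope (adjusted p = 0.102). Rgs16 was between 0.91 and 37.3 CPM in high-Dbp KO mice (median 5.34), against 0.43 to 9.58 CPM in low-Dbp KO mice (median 1.16). The highest value came from KO mouse 26 at ZT16. At ZT4 the direction was reversed, with means of 1.90 CPM in the high mice and 6.02 CPM in the low mice. With ZT4 left out, edgeR called the side difference (log2 difference 3.06, adjusted p = 0.00867), as it did with no filter on low counts (adjusted p = 0.0387).

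The genes with a called KO slope were sorted by their time of day in WT liver, which the ranking did not use. A 24 h wave was called in 7362 of 14835 genes in WT mice (49.6%) and in 113 of the 116 genes (97.4%). All 33 rhythmic genes with a positive slope peaked between ZT4 and ZT16 and all 80 rhythmic genes with a negative slope between ZT16 and ZT4, and no single KO mouse left out gave an exception, while without ZT16 1 gene with a negative slope peaked between ZT4 and ZT16; of all rhythmic genes 3764 peaked in the first of these spans and 3598 in the second. These spans of the day were chosen after the values were seen. Dbp itself peaked at ZT 8.36 in WT liver. Of the genes named above, Gm129 peaked at ZT 10.0, Per3 at ZT 10.7 and Nr1d1 at ZT 5.58, while Arntl peaked at ZT 21.01, Clpx at ZT 21.7 and Cry1 at ZT 17.8.

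**Figure D4:**
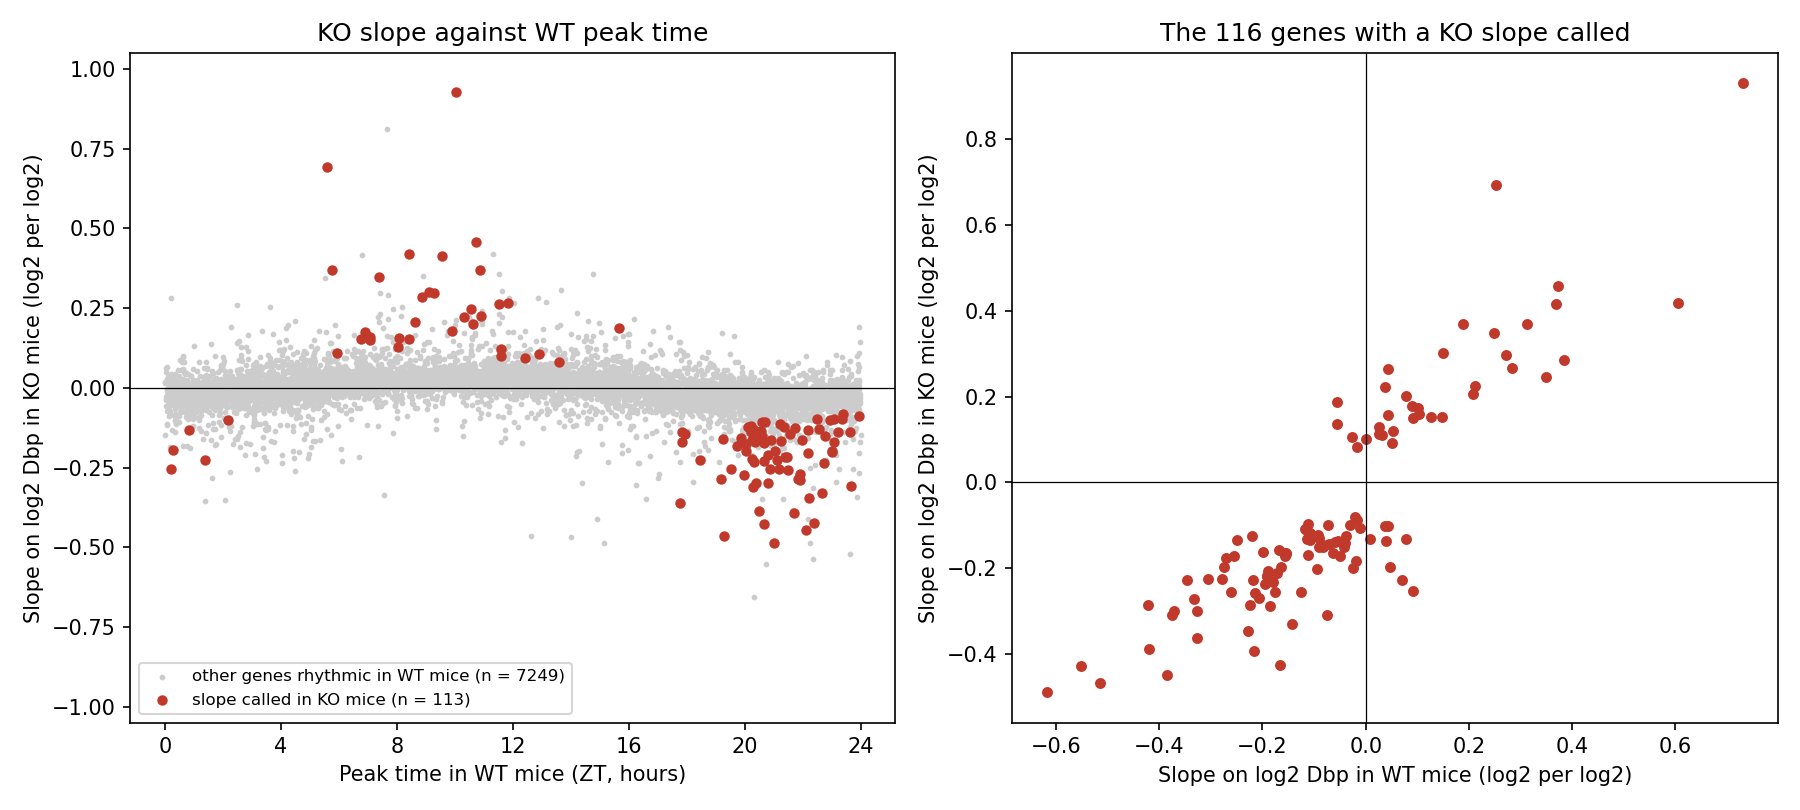
Left, slope on log2 Dbp among KO mice against the fitted peak time in WT mice, for the 7362 genes rhythmic in WT mice (113 with a called KO slope in red); right, KO slope against WT slope for all 116 genes with a called KO slope. Red points with positive slopes lie between ZT4 and ZT16 and those with negative slopes outside that span, and 104 of the 116 genes have slopes of the same sign in both genotypes.

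The same slope was then fitted among the 24 WT mice, none of which entered the ranking. Of the 116 genes, 104 (89.7%) had a WT slope of the same sign as in KO mice, against 7909 of all 14835 genes (53.3%). An unadjusted p under 0.05 with the same sign was reached by 54 of the 116 (46.6%, against 3.49% of all genes), and with the opposite sign by 0 (1.52% of all genes). Over all genes 5.01% had an unadjusted p under 0.05 in WT mice. Of single genes only 3 (0.0202%) were called in WT mice, 1 positive (0.00674%) and 2 negative (0.0135%): Pcsk4 (a proprotein convertase; slope 0.38 ± 0.05, SE, adjusted p = 0.00343), Pnrc1 (a nuclear receptor coactivator; -0.35 ± 0.06) and Nfil3 (-0.33 ± 0.05). All 3 also had called slopes of the same sign in KO mice, 0.29 ± 0.04 for Pcsk4, -0.23 ± 0.04 for Pnrc1 and -0.27 ± 0.04 for Nfil3 (SE). Of the REV-ERB repressed genes all 5 had negative WT slopes with an unadjusted p under 0.05 (2.69% of all genes), with Npas2 at -0.65 ± 0.12 and Arntl at -0.62 ± 0.14 (SE), and 6 of the 14 E-box targets had positive ones (2.32% of all genes). Nr1d1 had a WT slope of 0.25 ± 0.21 (SE, unadjusted p = 0.243). The difference of the KO and WT slopes was called for 0 genes by edgeR, with 515 at an unadjusted p under 0.05 (3.47%).

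WT mice of an hour differed in Dbp mostly at ZT4, ZT12 and ZT0, with log2 ranges of 2.85, 2.33 and 1.88, and hardly at ZT8, with 0.13, while the ranges in KO mice were 2.39 to 4.02. At ZT4 a single WT mouse, number 8, had 83.4 CPM of Dbp against a median of 23.4 CPM; without it 0 genes were called for the WT slope by edgeR and 416 in place of 743 had an unadjusted p under 0.05. Of the 116 genes, 105 then had the same sign in WT mice, 35 of them at an unadjusted p under 0.05; without all mice of ZT4 these counts were 94 and 31.

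Across all genes rhythmic in WT liver, the direction of the side difference varied with the WT peak time. Of genes peaking within 2 h of ZT12, 86.3% were higher on the high-Dbp side, and of those around ZT8 79.2%; the share was 60.8% around ZT16 and 46.8% around ZT4, and 21.8% and 20.5% around ZT20 and ZT0. In WT mice the share with a positive slope on Dbp was highest around ZT8, at 82.8%, with 68.5% around ZT12 and 67.4% around ZT4, and lowest around ZT20, at 17%. Around ZT16, where 60.8% of genes were higher on the high-Dbp side of KO mice, 28.7% had a positive slope in WT mice. Scaled by total counts and not by TMM, the KO shares were 13.3% around ZT0, 36.0% around ZT4, 68.7% around ZT8, 79.6% around ZT12, 49.9% around ZT16 and 14.8% around ZT20. Median differences were small, from -0.08 around ZT0 to 0.09 around ZT12 on the log2 scale, and genes of 1 window share the same mice and are not independent. The windows were chosen after the values were seen.

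**Figure D5:**
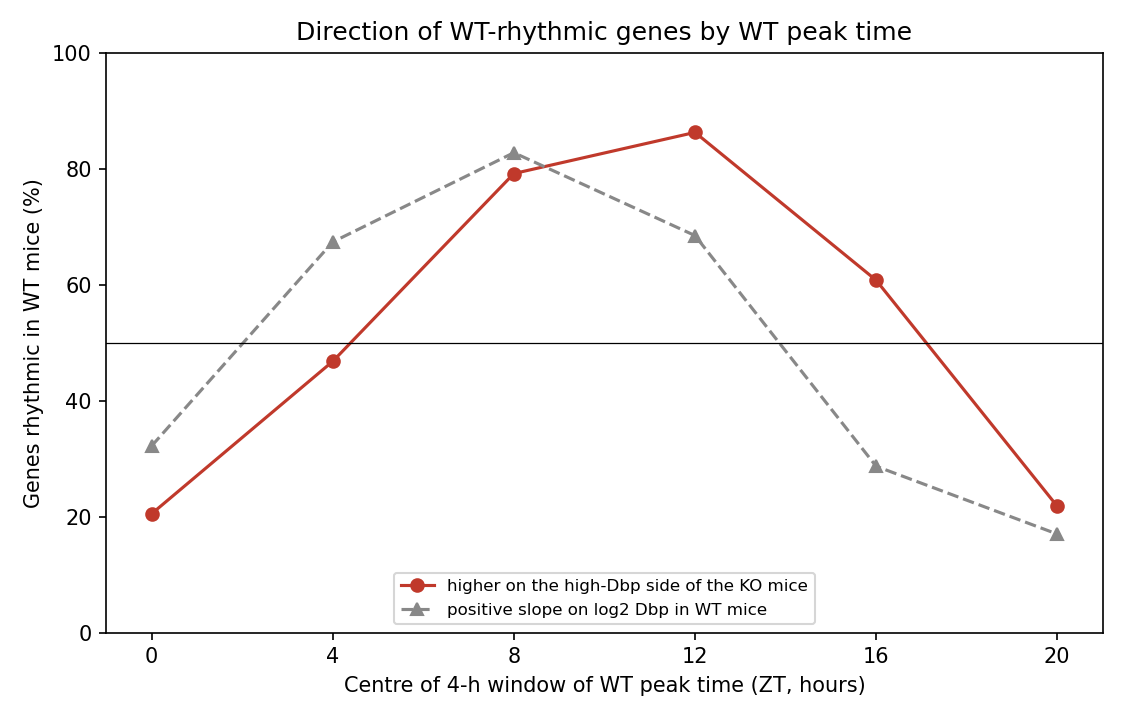
Share of WT-rhythmic genes (1084 to 1363 per window) by 4-h window of WT peak time; red, genes higher on the high-Dbp side of KO mice, and grey, genes with a positive slope on log2 Dbp among WT mice; the line marks 50%. Red is highest around ZT12, at 86.3%, and grey around ZT8, at 82.8%.

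The promoter windows of the 116 genes were counted for the same 3 motifs; 28 of the 35 genes with positive and 67 of the 81 with negative slopes had a window. An E-box was present in 8 of the 28 (28.6%) and 6 of the 67 (8.96%), against 9.49% of the 11330 tested genes that had one. The D-box was present in 4 of the 28 (14.3%), namely Per3, Coq10b, Map2k6 and Apol7a, and in 0 of the 67, against 0.697% of tested genes. The REV-ERB and ROR element was present in 0 of the 28 and in 4 of the 67 (5.97%), namely Nfil3, Dhrs9, Micalcl and Leo1, against 2.26%. Among the 8 positive-slope genes with an E-box, Gm15408 lies within Gm15411, so that 1 locus was counted 2 times. Genes with several starts had more than 1 window, and Gm15411 had 8. Counted by window, an E-box was present in 10 of 44 for positive slopes (22.7%) and 6 of 91 for negative slopes (6.59%). The share was 7.87% of the windows of tested genes. These counts carry no test.

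Of 12 genes that PAR bZIP factors such as DBP activate, 0 were called by edgeR between the sides. At an unadjusted p under 0.05, 4 were higher (4.73% of all genes) and 0 lower (4.52%), and the median log2 difference was 0.40. Cyp7a1, the rate-limiting enzyme of bile acid synthesis, was between 94.9 and 646 CPM in high-Dbp KO mice (median 244), against 95.7 to 295 CPM in low-Dbp KO mice (median 177), a log2 difference of 0.60 ± 0.17 (SE, adjusted p = 0.279). Por had the list's only called slope, and Alas1, the first enzyme of haem synthesis, had a log2 difference of 0.58 ± 0.21 (SE, adjusted p = 0.414). In WT mice 1 of the 12 had an unadjusted p under 0.05 for its slope, a positive one (2.32% of all genes).

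Cholesterol synthesis and uptake genes lay on the higher side as a list. All 19 measured members had positive log2 differences, from 0.12 to 0.61 (median 0.37); 12 had an unadjusted p under 0.05 (4.73% of all genes were higher at that p), but 0 were called by edgeR, and 0 had a called slope on log2 Dbp. Mvk, the mevalonate kinase, was between 25.0 and 102 CPM in high-Dbp KO mice (median 46.9), against 20.8 to 43.2 CPM in low-Dbp KO mice (median 33.6), a log2 difference of 0.54 ± 0.16 (SE, adjusted p = 0.288). Its sides were separated in 4 of 6 hours, and in the other 2 the mean difference was not positive; the same held for Fdft1, Fdps and Nsdhl, further enzymes of the pathway. For these 4 genes the interaction of side and hour had unadjusted p of 0.0152 to 0.0481 and was not called (adjusted p = 0.952). In WT mice the median slope of the list was -0.02, with 0 members at an unadjusted p under 0.05.

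In the other lists 0 members were called between the sides by edgeR. Of 18 fatty acid synthesis genes, 4 were higher (4.73% of all genes) and 1 lower (4.52%) at an unadjusted p under 0.05. Srebf1, the transcription factor SREBP-1, had that list's only called slope (0.19 ± 0.04, SE, adjusted p = 0.0478). Of 18 unfolded protein response genes, 5 were higher at an unadjusted p under 0.05 (4.73% of all genes) and 14 had positive log2 differences, and Trib3, a pseudokinase, had a called slope (0.37 ± 0.08, SE, adjusted p = 0.029). All mice were male. Of genes known as sex-biased in liver, 25 of 26 female-biased genes had positive log2 differences and 23 of 24 male-biased genes negative ones, with medians of 0.44 and -0.43, while the median slopes on log2 Dbp in WT mice were -0.11 for the female-biased and 0.11 for the male-biased list; the genes share an upstream hormonal signal and are not independent. Of these, 4 female-biased genes were higher (4.73% of all genes) and 4 male-biased genes lower (4.52%) at an unadjusted p under 0.05. At the same p, glucocorticoid targets had 1 higher of 15, acute phase proteins 1 higher of 20, and cytosolic ribosomal protein genes 0 of 25 in either direction, although all 25 had positive log2 differences (0.08 to 0.19, median 0.15), also with total counts or DESeq2 size factors as the scaling.

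Whether the side difference varied over the hours was tested by an interaction, which called 0 genes with edgeR, while 678 (4.57%) had an unadjusted p under 0.05. Without KO mouse 18 of ZT12, which leaves 1 high mouse at that hour, 143 genes were called for the interaction.

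Body weight averaged 27.1 g ± 2.999 on the high-Dbp side and 28.8 g ± 1.66 on the low-Dbp side (SD, n = 12 each), a difference of -1.67 g (exact permutation test within hours, two-sided p = 0.157). Of the 5 KO mice housed alone, 2 were on the high-Dbp side and 3 on the low-Dbp side (exact permutation p = 1). Of 4 cages that gave 2 KO mice, all killed at one hour per cage, 2 gave both mice to the low side, 1 both to the high side and 1 one to each. Both low mice of ZT4 shared a cage, as did both low mice of ZT8 and both high mice of ZT16. At these hours side and cage cannot be told apart. Marker lists for other cell types had 0 called members: summed Kupffer cell and macrophage markers were 1236 to 2431 CPM on the high-Dbp side and 817 to 1979 CPM on the low-Dbp side, endothelial markers 574 to 789 CPM on the high-Dbp side and 493 to 730 CPM on the low-Dbp side, stellate cell and fibroblast markers 497 to 636 CPM on the high-Dbp side and 458 to 669 CPM on the low-Dbp side, and T and NK cell markers 6.01 to 15.3 CPM on the high-Dbp side and 7.31 to 13.97 CPM on the low-Dbp side. Summed erythroid markers were 25.7 to 169 CPM on the high-Dbp side and 33.7 to 96.5 CPM on the low-Dbp side. These ranges overlap, and no marker in the table was at 0 in all KO mice. Of 6 tested erythroid genes, 1 was lower between the sides at an unadjusted p under 0.05 (4.52% of all genes). In WT mice 4 of the 6 had a positive slope on log2 Dbp at that p (2.32% of all genes), with a list median of 0.49. The part of cell make-up in the results was not tested. In whole liver fewer cells of a type and less RNA per cell cannot be told apart.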

How the data were processed

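Liver poly-A RNA of 48 mice was sequenced. The authors deposited a table of read counts per gene for 23732 genes; per the labels' protocols the kit was Illumina TruSeq RNA v2 with 13 PCR cycles, and per the submitters' processing notes bases were called with CASAVA and reads aligned with STAR 2.4.0f1 to mm9. How reads were counted, and the step that brought all libraries to nearly equal totals, are not given in the sources used here, so the original sequencing depth is unknown. Reads carry no molecular identifiers.

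Genes were kept by filterByExpr over the 12 genotype and hour groups (minimum count 10), which left 14836 with 99.98% of the counts, and libraries were scaled by TMM. edgeR 4.0.16 in R 4.3.3 fitted quasi-likelihood models to the deposited counts: side plus hour in 24 KO mice (17 residual degrees of freedom); side by hour (12); a slope on log2 CPM of Dbp (prior count 2) plus hour in KO and in WT mice (17 each); the KO minus WT slope in 48 mice (34); and a 24 h cosine and sine in WT mice (21), from 1 cycle of 6 hours. Dbp was left out of the adjusted p values. SE values come from the F statistics. DESeq2 1.42.0 was an alternative. P values measure the spread between mice, and cage mates were treated as independent, since cage was in no model.

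The ranking rule, the gene lists, the named genes and the tests were chosen with earlier results of these data known. Text names the clock list members, called genes at 5 CPM or more, up to 4 members of each of the 30 lists and the smallest p values of the other fits; Lonrf3, Etnk2 and the genes with a KO slope or a motif were named after their values were seen. The KO slope was planned as an alternative and made a result afterwards. Promoters are RefSeq, GRCm38.p6; gene coordinates are mm9. Some list members are counted but not reported singly here. The scripts were tested on simulated data.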

Additional observations from a re-analysis of the deposited data

Results flagged for a closer look

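Dbp, the 5 called genes and Arntl were checked for a single mouse far from the other 3 of its genotype and hour, as was the body weight of KO mice. Such a mouse was found in 9 of 90 groups of 4. For normally distributed values chance gives about 1 in 20. That rate does not hold for weights in whole grams, where 3 equal values make any different one stand out. All levels here are TMM-scaled CPM, and no cause was tested.

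Among KO mice at ZT20, mouse 37 had 5.00 CPM of Dbp, against 33.03 to 40.03 CPM in the other 3, of which 1 was placed on the low-Dbp side with it. Among WT mice, mouse 48 at ZT0 had 2.08 CPM of Dbp (0.522 to 0.648 CPM in the others), and mouse 11 at ZT8 had 137 CPM (148 to 150 CPM in the others). Lonrf3 was 10.6 CPM in WT mouse 42 at ZT0 (6.30 to 6.63 CPM in the others) and 2.83 CPM in WT mouse 16 at ZT8 (1.72 to 1.84 CPM in the others). Arntl was 20.9 CPM in WT mouse 27 at ZT16 (33.7 to 36.6 CPM in the others) and 5.79 CPM in WT mouse 8 at ZT4 (19.5 to 23.9 CPM in the others), the mouse with the highest Dbp of its hour. KO mouse 25 at ZT16 weighed 29 g (28 g each in the others), and KO mouse 39 at ZT20 weighed 23 g (31 g in the others).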

How the results depend on the processing

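No paired analysis was possible because the numbers of the mice are unique and the groups share none, and only 1 cage (C7) held both a high-Dbp and a low-Dbp KO mouse. Over the 16 alternatives other than leaving out 1 mouse, none of the 79 genes these were run for changed direction; Gm129 was called in all 16. Between the sides, 2 genes were called higher and 3 lower. DESeq2 called 30 higher and 39 lower, no filter on low counts 15 and 16, the highest and lowest mouse of each hour alone 11 and 41, and log2 Dbp as a number 35 and 81. Without KO mice 20, 21, 43 and 44 the counts were 1 and 1, without ZT0 or ZT8 they were 1 and 0, without ZT16 1 and 1, and without ZT4 5 and 5. TMM-scaled Dbp, both other scalings, body weight and housing left 2 and 3. Without 1 mouse there were 2 to 4 higher and 3 to 11 lower, the most without KO mouse 1 of ZT4.

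For the KO slope, 35 positive and 81 negative calls became 21 positive without ZT0, 18 positive and 37 negative without ZT8, 21 positive without ZT16 and 18 positive without ZT20. Without 1 mouse they were 19 to 39 and 45 to 90, lowest without KO mouse 37 (positive) and KO mouse 14 (negative). For the WT slope, 1 positive and 2 negative calls became 2 and 5 with total counts and with no filter, 0 and 1 without ZT0, 0 and 0 without ZT4, 2 and 0 without ZT12, and 4 negative without ZT20; without ZT8 or ZT16 there was 1 negative. Without 1 mouse they were 0 to 2 and 0 to 4. The interaction called 151 genes with no filter and 0 to 143 without 1 mouse; the slope difference called 0 in every fit. Rhythmic genes in WT mice were 6860 to 7567 without 1 mouse. The weight difference was -2.20 to -0.67 g. The causes of these shifts were not tested.

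Where a gene lay under 1 CPM in a mouse, as Gm129 did in its lowest KO mice, counting error is part of the spread. The deposited totals are nearly equal, so the original sequencing depth is unknown.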
